A study of Mus musculus with 8 samples.

Results

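The genes described here encode the enzymes and adaptors that carry the first steps of T cell receptor (TCR) signalling, together with those that restrain them. They are *Lck*, *Fyn*, *Zap70*, *Lat*, *Lcp2*, *Plcg1*, *Csk*, *Ptpn6* and *Ptpn22*, 9 genes chosen by symbol among the 22520 genes and assembled transcripts of the deposited table. All 9 were found in the table and all 9 passed the filter on low values. The study cultured CD8+ T cells from mouse spleen for 6 days with anti-CD3 and anti-CD28 antibodies and IL-2, a model of persistent TCR stimulation. From day 3, 4 cultures received 40 µM DADA (diisopropylamine dichloroacetate, an inhibitor of pyruvate dehydrogenase kinase) and 4 cultures, titled Ctrl, received an equal volume of the solvent DMSO. The genotype field of the labels reads control for the DMSO samples and model for the DADA samples, with no allele named, while the protocols and the study's methods describe only the treatment. All 8 libraries were therefore made from stimulated cells, and no unstimulated cells were compared. The series describes the 4 samples of each group as biological replicates without saying whether they came from separate animals, so the p-values measure the spread between these samples.

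When the TCR binds its ligand, the Src-family kinase LCK, helped by FYN, phosphorylates the CD3 and ζ chains, and the kinase ZAP-70 docks there and is activated. ZAP-70 then phosphorylates the membrane adaptor LAT and the cytosolic adaptor SLP-76, which is encoded by *Lcp2*, and these assemble a complex that activates phospholipase C-γ1, the product of *Plcg1*. This enzyme makes the messengers that open the calcium, protein kinase C and Ras branches. CSK holds the Src-family kinases in a closed state by phosphorylating their tail, and the phosphatases SHP-1 (*Ptpn6*) and PTPN22 remove activating phosphates near the receptor. These switches act on proteins, and the libraries measured only their mRNA.

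The 250 bases before the start of transcription are printed for *Lck*, which has a distal and a proximal promoter, and for the 2 genes with the largest rise (*Ptpn22*, *Plcg1*) and the 2 with the largest fall (*Lcp2*, *Fyn*), because the mRNA level is the quantity that differed. The sequences are from RefSeq on GRCm38.p6, a build that was used here for sequence only, and run 5′ to 3′ on the strand of the gene. Where RefSeq lists several starts, the one farthest upstream was taken, and for *Lck* also the second. Capitals mark each match to AGGAAG on either strand (CTTCCT in the other orientation). These letters are the GGAA core that ETS-family factors bind with a fixed base on each side, so GGAA with other flanks is not marked.
Lck, distal start, chr4:129573642-129573891, minus strand: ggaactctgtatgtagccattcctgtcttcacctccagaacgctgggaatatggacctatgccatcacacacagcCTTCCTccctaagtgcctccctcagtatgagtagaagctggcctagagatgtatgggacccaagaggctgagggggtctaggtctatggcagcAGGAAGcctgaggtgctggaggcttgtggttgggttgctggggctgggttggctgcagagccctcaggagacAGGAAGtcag
Lck, proximal start, chr4:129558373-129558622, minus strand: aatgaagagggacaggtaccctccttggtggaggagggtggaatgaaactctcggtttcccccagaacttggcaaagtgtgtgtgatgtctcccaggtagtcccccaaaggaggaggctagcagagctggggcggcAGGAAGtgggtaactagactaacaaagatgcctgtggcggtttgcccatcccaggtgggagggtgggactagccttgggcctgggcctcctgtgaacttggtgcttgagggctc
Ptpn22, chr3:103859545-103859794, plus strand: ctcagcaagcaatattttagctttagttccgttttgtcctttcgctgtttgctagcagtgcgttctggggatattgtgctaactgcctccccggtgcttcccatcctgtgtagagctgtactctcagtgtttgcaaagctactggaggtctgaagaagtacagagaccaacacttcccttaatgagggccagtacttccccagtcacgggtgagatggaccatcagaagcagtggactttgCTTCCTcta
Plcg1, chr2:160731060-160731309, plus strand: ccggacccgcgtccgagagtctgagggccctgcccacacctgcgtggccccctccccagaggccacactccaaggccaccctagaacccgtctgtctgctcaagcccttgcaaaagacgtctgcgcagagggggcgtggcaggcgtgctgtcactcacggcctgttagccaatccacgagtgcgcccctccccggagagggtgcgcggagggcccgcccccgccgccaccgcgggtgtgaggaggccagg
Lcp2, chr11:34046678-34046927, plus strand: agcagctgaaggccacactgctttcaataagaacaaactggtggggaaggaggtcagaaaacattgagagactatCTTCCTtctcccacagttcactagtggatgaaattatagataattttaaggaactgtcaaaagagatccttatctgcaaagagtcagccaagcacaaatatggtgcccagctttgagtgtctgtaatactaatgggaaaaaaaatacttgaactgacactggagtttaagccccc
Fyn, chr10:39369549-39369798, plus strand: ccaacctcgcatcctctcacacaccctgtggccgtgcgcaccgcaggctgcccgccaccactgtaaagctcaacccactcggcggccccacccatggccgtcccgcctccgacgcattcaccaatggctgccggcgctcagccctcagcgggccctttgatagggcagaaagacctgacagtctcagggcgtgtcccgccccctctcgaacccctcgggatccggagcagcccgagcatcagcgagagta

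An AGGAAG match lay in 10 of the 14 windows that RefSeq lists for the 9 genes, and in at least 1 window of 7 genes, *Fyn* and *Plcg1* being the exceptions. It lay in 29.5% of all 32851 windows of that length. The AP-1 type letters TGANTCA, held by 6.7% of all windows, were found on neither strand in any of the 14 windows. These matches describe letters in a window. The 2 genes without a match in these windows moved in opposite directions, as did *Ptpn22* and *Lcp2*, whose printed windows each hold 1 match. The FPKM value of *Lck* pools transcripts from its 2 starts, so the table cannot say which start a transcript came from.

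The deposited level of a gene in a library is an FPKM value, the number of fragments per kilobase of transcript scaled to the mapped fragments of the library, which allows levels to be compared between genes. The sum of FPKM was 450473 to 456939 with DMSO and 438299 to 449480 with DADA. The depth, inferred from the spacing of low FPKM values, was 13750000 to 16100000 fragments with DMSO and 15230000 to 18870000 with DADA. No library stood apart in its correlation with its group (0.993 to 0.995 within the groups and 0.958 to 0.961 between them, across genes). Of the 5 markers of CD8+ T cells in the table, all of them CD3 or CD8 chains, *Cd3g* was the highest at 208 to 232 FPKM. Their summed level was 674 to 680 FPKM with DMSO and 776 to 805 FPKM with DADA, and all 5 were called higher with DADA (median log2 fold change 0.28), although the values of *Cd3g* overlapped between the groups. The part of this rise in the results was not tested. The CD4 T cell, NK cell and erythroid markers each summed to less than 1 FPKM in every library, with NK cell sums of 0 to 0.0959 FPKM with DMSO and 0.144 to 0.346 FPKM with DADA, a difference whose part in the results was not tested. Of the 5 B cell markers, *Pax5* was listed at 0 throughout and only *Cd79b* passed the filter, and the list summed to 2.59 to 3.54 FPKM with DMSO and 2.36 to 3.09 FPKM with DADA. Of the 6 myeloid markers, *Csf1r* and *Adgre1* were listed at 0 and only *Fcer1g* passed, with list sums of 1.15 to 2.18 and 1.45 to 1.91 FPKM. In bulk RNA, a change in the share of a cell type and a change in the RNA per cell cannot be told apart.

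Differences were tested with limma on log2(FPKM + 1) over 10666 genes, those with 1 FPKM or more in 4 or more libraries, with Benjamini-Hochberg adjustment over all of them and a call at an adjusted p under 0.05. Fold changes are on that scale and understate changes at low levels. Of the 9 genes, 7 were called, 5 higher (*Lck*, *Zap70*, *Plcg1*, *Ptpn6* and *Ptpn22*) and 2 lower (*Fyn* and *Lcp2*) with DADA, and *Lat* and *Csk* were not. In this comparison 66.2% of all genes tested were called, 30.9% higher and 35.3% lower, so a call is the usual outcome here. The same 7 genes had no overlap between the 4 DMSO and the 4 DADA values, a separation seen for 60.6% of all genes tested (28.4% higher, 32.2% lower). The differences were modest. Their median size was 0.19 on the log2 scale against 0.21 over all genes tested, and 19.4% of the genes tested had a larger difference than *Lcp2*, the gene that moved most.

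**Figure D1:**
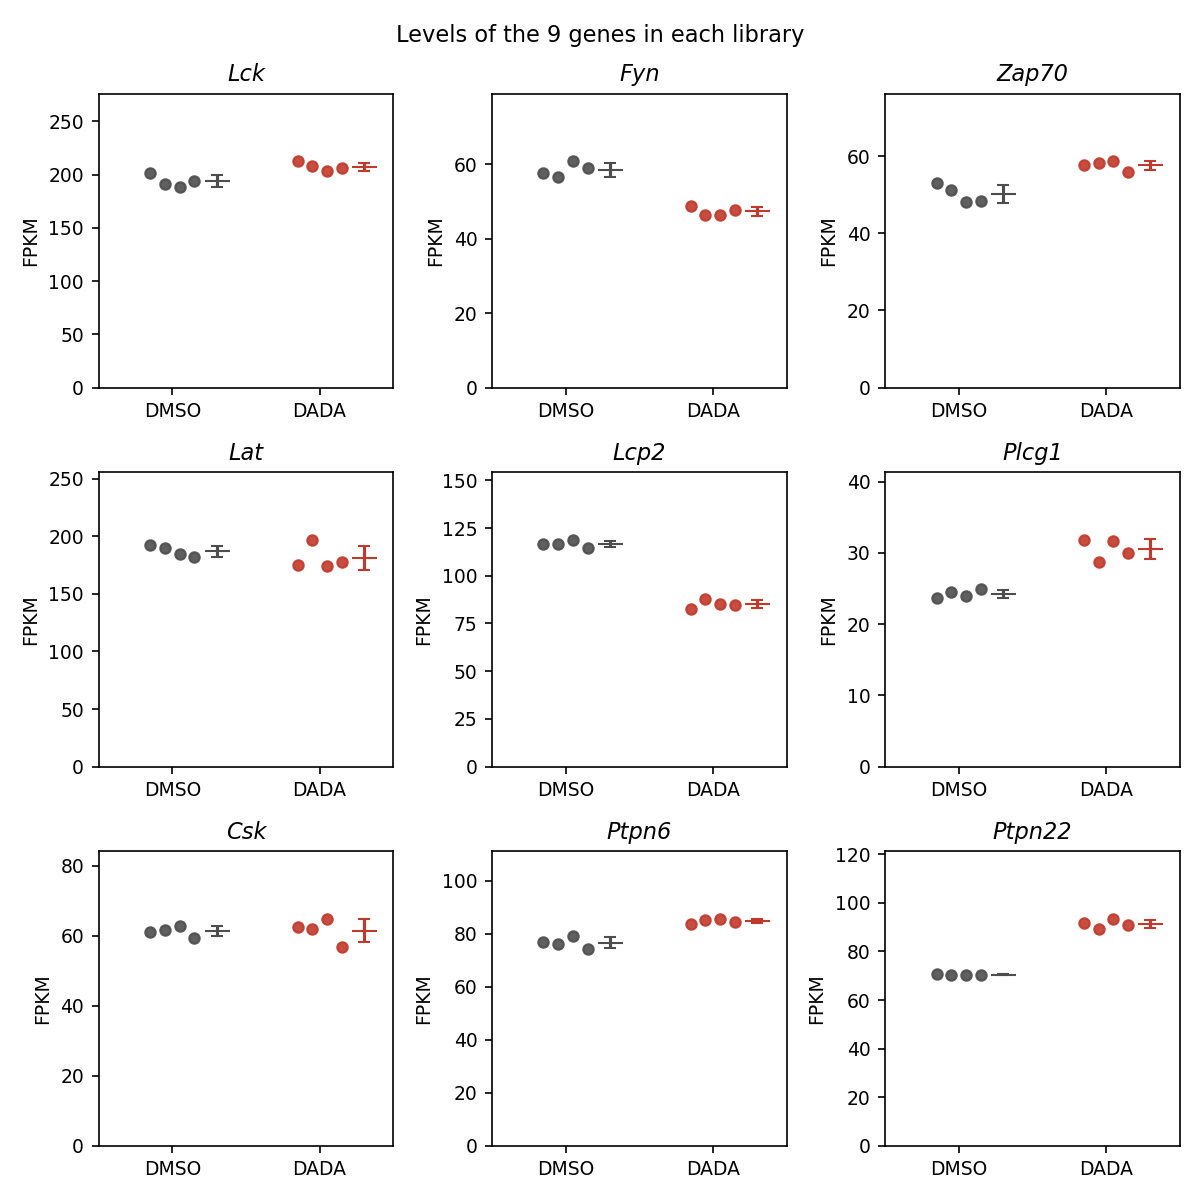
Level of each of the 9 genes in each library, with FPKM on the vertical axis from 0 and the DMSO and DADA groups on the horizontal axis. Points are libraries 1 to 4 from left to right, and the dash with bars is the mean ± SD (n = 4). The points of the groups overlap for *Lat* and *Csk* and lie apart for the other 7 genes, most widely for *Lcp2*, which is at 114 to 119 FPKM with DMSO and 82.4 to 87.6 FPKM with DADA.

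The kinases that start the cascade did not move together. *Lck* (ENSMUSG00000000409) was at 201, 191, 188 and 194 FPKM in DMSO libraries 1 to 4 and at 212, 208, 204 and 206 FPKM in DADA libraries 1 to 4. The lowest DADA value, 204 FPKM, lay just above the highest DMSO value, 201 FPKM. *Lck* thus rose, in means ± SD over 4 libraries, from 194 ± 5.65 to 207 ± 3.70 FPKM, which was 7.14% higher, or 0.10 on the log2 scale with a standard error of 0.0254 (adjusted p = 0.00600 by limma). *Fyn* (ENSMUSG00000019843), the other Src-family kinase of T cells, was at 57.6, 56.6, 60.8 and 59.1 FPKM with DMSO and at 49.0, 46.4, 46.4 and 47.8 FPKM with DADA. No DADA value reached the DMSO values, with a gap wider than the range within either group. The mean of *Fyn* fell from 58.5 ± 1.86 to 47.4 ± 1.22 FPKM, or -0.30 on the log2 scale with a standard error of 0.0297 (adjusted p = 1.05e-05 by limma).

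*Zap70* (ENSMUSG00000026117), the Syk-family kinase that reads the phosphorylated receptor, was at 53.1, 51.2, 48.1 and 48.4 FPKM with DMSO and at 57.6, 58.3, 58.6 and 55.8 FPKM with DADA. The groups did not overlap, and the DMSO libraries were the more spread. The mean rose from 50.2 ± 2.35 to 57.5 ± 1.27 FPKM, or 0.19 on the log2 scale with a standard error of 0.0345 (adjusted p = 6.45e-04 by limma). For *Lck*, *Fyn* and *Zap70* the two-sided exact permutation test gave p = 0.0286, the smallest value that 4 against 4 libraries allow. The other kinases of these families were scarce. *Syk*, *Src*, *Lyn*, *Fgr* and *Blk* were among those that did not pass the filter, *Syk* was at 0.0131 to 0.0616 FPKM over the 8 libraries and *Blk* was listed at 0 in all of them. The sole further kinase tested was *Yes1*, named for that reason after its values were seen, at 0.686 to 0.882 FPKM with DMSO and 1.06 to 1.35 FPKM with DADA (0.28 on the log2 scale, limma, adjusted p = 0.00401). That call was lost under quantile normalization.

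The adaptors differed from each other. *Lat* (ENSMUSG00000030742), the membrane scaffold, was at 192, 190, 185 and 182 FPKM with DMSO and at 175, 196, 174 and 177 FPKM with DADA. DADA 2 was the highest of all 8 libraries, whereas the other 3 DADA libraries lay below every DMSO library. With all 8 libraries *Lat* was at 187 ± 4.77 and 181 ± 10.5 FPKM, and its log2 fold change of -0.05 was not called (95% interval -0.14 to 0.04, limma, adjusted p = 0.268, exact permutation test, p = 0.286). Without DADA 2 the log2 fold change was -0.09 and was called (limma, adjusted p = 0.0110), so the result for *Lat* rests on that library.

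*Lcp2* (ENSMUSG00000002699), which encodes SLP-76, the adaptor that joins LAT to phospholipase C-γ1 and to the cytoskeleton, moved the most of the 9 genes. It was at 117, 116, 119 and 114 FPKM with DMSO and at 82.4, 87.6, 85.1 and 84.8 FPKM with DADA. All DADA values were far below all DMSO values, and the replicates were tight in both groups. The mean fell from 117 ± 1.72 to 85.0 ± 2.13 FPKM, a change of -27.0% or -0.45 on the log2 scale with a standard error of 0.0239 (adjusted p = 1.02e-07 by limma, exact permutation test, p = 0.0286). Among the 8187 other genes that averaged 5 FPKM or more, those whose 8 centred log2 values lay closest to *Lcp2* were *Capzb*, *Rexo2* and *Kpna2*. Their Euclidean distances were 0.0523, 0.0557 and 0.0674, and their log2 fold changes -0.46, -0.45 and -0.45. The distance includes the difference between the groups, so fold changes near that of *Lcp2* follow from the selection. Shared regulation was not tested.

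*Plcg1* (ENSMUSG00000016933), the enzyme that turns the assembled complex into diacylglycerol and inositol trisphosphate, was the least abundant of the 9 genes. It was at 23.7, 24.5, 23.9 and 24.9 FPKM with DMSO and at 31.8, 28.8, 31.7 and 30.1 FPKM with DADA. The groups were well apart, and DADA 2 was the lowest DADA library. The mean rose from 24.2 ± 0.544 to 30.6 ± 1.45 FPKM, which was 26.1% higher, or 0.32 on the log2 scale with a standard error of 0.0365 (adjusted p = 2.72e-05 by limma, exact permutation test, p = 0.0286). In the GENCODE M21 annotation, exons of *Plcg1* overlap those of *Zhx3* on the opposite strand, which was at 1.19 to 2.42 FPKM over the 8 libraries. Exons of *Ptpn6* overlap those of Gm20531, again on the opposite strand. Exons of *Lcp2* overlap those of 4930469K13Rik, also on the opposite strand, at 0 to 0.525 FPKM. *Plcg1* also overlaps Gm27206 on the opposite strand. On the same strand, exons of *Lck* overlap those of Mir8119 and exons of *Lat* those of Mir7058. Gm20531, Gm27206, Mir8119 and Mir7058 had no row under these symbols. Strand cannot separate reads in the same-strand overlaps. Whether the counting used strand is not given in the sources used here, so reads in the opposite-strand overlaps cannot be assigned with certainty either.

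Of the 3 genes that restrain the cascade, the phosphatases were called higher and the kinase was not called. *Csk* (ENSMUSG00000032312), whose product phosphorylates the inhibitory tail of LCK and FYN, was at 61.2, 61.7, 62.8 and 59.5 FPKM with DMSO and at 62.6, 61.8, 64.7 and 56.8 FPKM with DADA. The DADA libraries lay on either side of the DMSO libraries, with the highest and the lowest value of all 8. The means were 61.3 ± 1.39 and 61.5 ± 3.37 FPKM, and the log2 fold change of 0.00 had a 95% interval of -0.08 to 0.09 (limma, adjusted p = 0.956, exact permutation test, p = 0.914). Its sign changed when DMSO 4, DADA 1, DADA 2 or DADA 3 was left out, and the difference was never called.

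*Ptpn6* (ENSMUSG00000004266), which encodes the SH2-domain phosphatase SHP-1, was at 76.7, 75.9, 79.2 and 74.3 FPKM with DMSO and at 83.7, 85.3, 85.4 and 84.4 FPKM with DADA. The DADA libraries were close to each other and all above the DMSO libraries. The mean rose from 76.5 ± 2.06 to 84.7 ± 0.782 FPKM, or 0.14 on the log2 scale with a standard error of 0.0240 (adjusted p = 4.07e-04 by limma). *Ptpn22* (ENSMUSG00000027843), a phosphatase that works with CSK against LCK and ZAP-70, was at 70.7, 70.3, 70.1 and 70.3 FPKM with DMSO and at 91.7, 89.3, 93.2 and 90.8 FPKM with DADA. It showed the largest rise of the 9 genes, with all DADA values well above all DMSO values. The mean rose from 70.4 ± 0.254 to 91.2 ± 1.64 FPKM, which was 29.7% higher, or 0.37 on the log2 scale with a standard error of 0.0207 (adjusted p = 1.49e-07 by limma). Its coefficient of variation between DMSO libraries was 0.361%, below the 1.94% that counting alone would give at the estimated depth and the shortest coding transcript. This was not particular to *Ptpn22*. *Ptpn6* with DADA (0.923% against 2.30%) and *Lcp2* with DMSO (1.47% against 1.87%) were also below that value. Others were above it, such as *Lck* with DMSO (2.92% against 1.37%). The reason was not tested. For *Ptpn6* and *Ptpn22* the exact permutation test gave p = 0.0286.

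**Figure D2:**
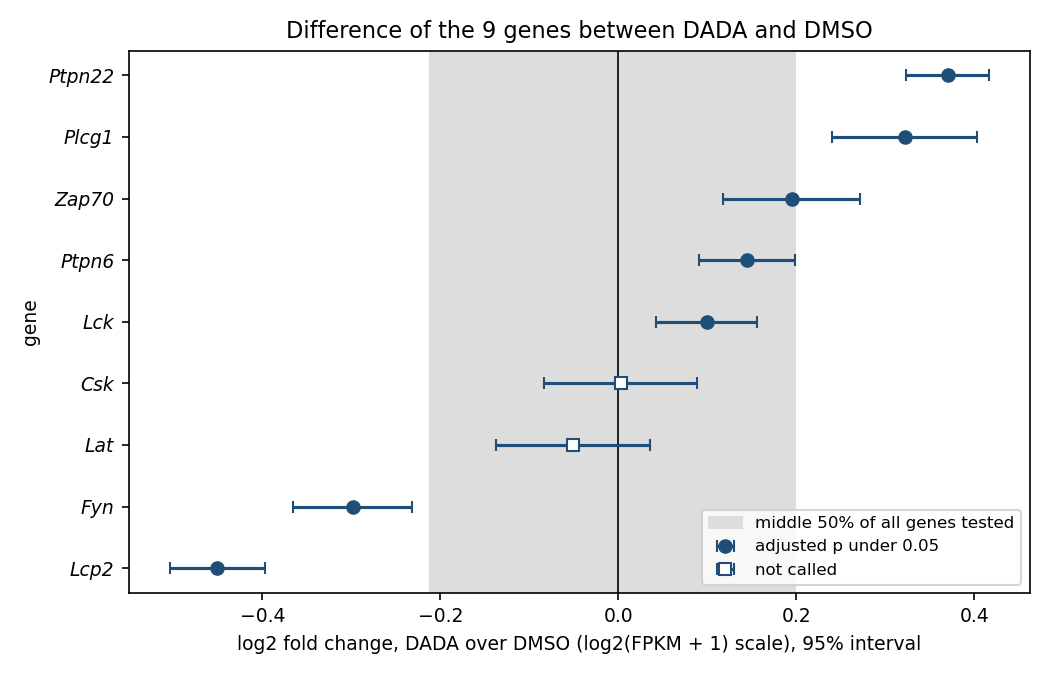
Log2 fold change of each of the 9 genes between DADA and DMSO on the log2(FPKM + 1) scale (horizontal axis), ordered by size, with bars for the 95% interval of the limma fit. The grey band holds the middle 50% of all genes tested (-0.21 to 0.20). *Ptpn22* and *Plcg1* lie to its right and *Fyn* and *Lcp2* to its left, and the open squares of *Csk* and *Lat* have intervals that include 0.

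The order of the levels, on the FPKM scale, changed in its middle part. With DMSO it ran *Lck*, *Lat*, *Lcp2*, *Ptpn6*, *Ptpn22*, *Csk*, *Fyn*, *Zap70* and *Plcg1*, from 194 to 24.2 FPKM. The ranges of 4 libraries overlapped between the neighbours *Lck* and *Lat* and between *Csk* and *Fyn*, and in each of these pairs the former gene was still above the latter in all 4 libraries. With DADA the order ran *Lck*, *Lat*, *Ptpn22*, *Lcp2*, *Ptpn6*, *Csk*, *Zap70*, *Fyn* and *Plcg1*, from 207 to 30.6 FPKM. Here *Lcp2* and *Ptpn6* overlapped, with *Lcp2* above in 2 of 4 libraries, and so did *Csk* and *Zap70*. *Ptpn22* thus moved from below to above *Lcp2*, and *Zap70* from below to above *Fyn*, in every library of the group. All 9 genes were above the median level of the genes tested, which was 13.0 FPKM with DMSO.

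Ratios between genes within a library do not depend on how the library was scaled, and they are given as descriptions. The *Fyn*/*Lck* ratio was 0.286, 0.296, 0.323 and 0.305 in DMSO libraries 1 to 4 and 0.231, 0.224, 0.228 and 0.232 in DADA libraries 1 to 4. The DADA values all lay below the DMSO values. The *Zap70*/*Lck* ratio was 0.250 to 0.268 with DMSO and 0.271 to 0.288 with DADA, so that the groups lay next to each other without overlap. The *Ptpn22*/*Lck* ratio was 0.351 to 0.373 with DMSO and 0.430 to 0.458 with DADA, a clear separation. The other ratios of a restraining gene to *Lck* overlapped between the groups, at 0.304 to 0.334 against 0.276 to 0.318 for *Csk*/*Lck* and at 0.381 to 0.421 against 0.394 to 0.419 for *Ptpn6*/*Lck*. Within the LAT complex, the *Lcp2*/*Lat* ratio was 0.607, 0.614, 0.642 and 0.629 with DMSO and 0.470, 0.446, 0.489 and 0.479 with DADA. The *Plcg1*/*Lat* ratio was 0.123, 0.129, 0.129 and 0.137 with DMSO and 0.181, 0.146, 0.182 and 0.170 with DADA. Both ratios separated the groups, in opposite directions, and the low *Plcg1*/*Lat* value of DADA 2 comes from the library with high *Lat* and low *Plcg1*.

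**Figure D3:**
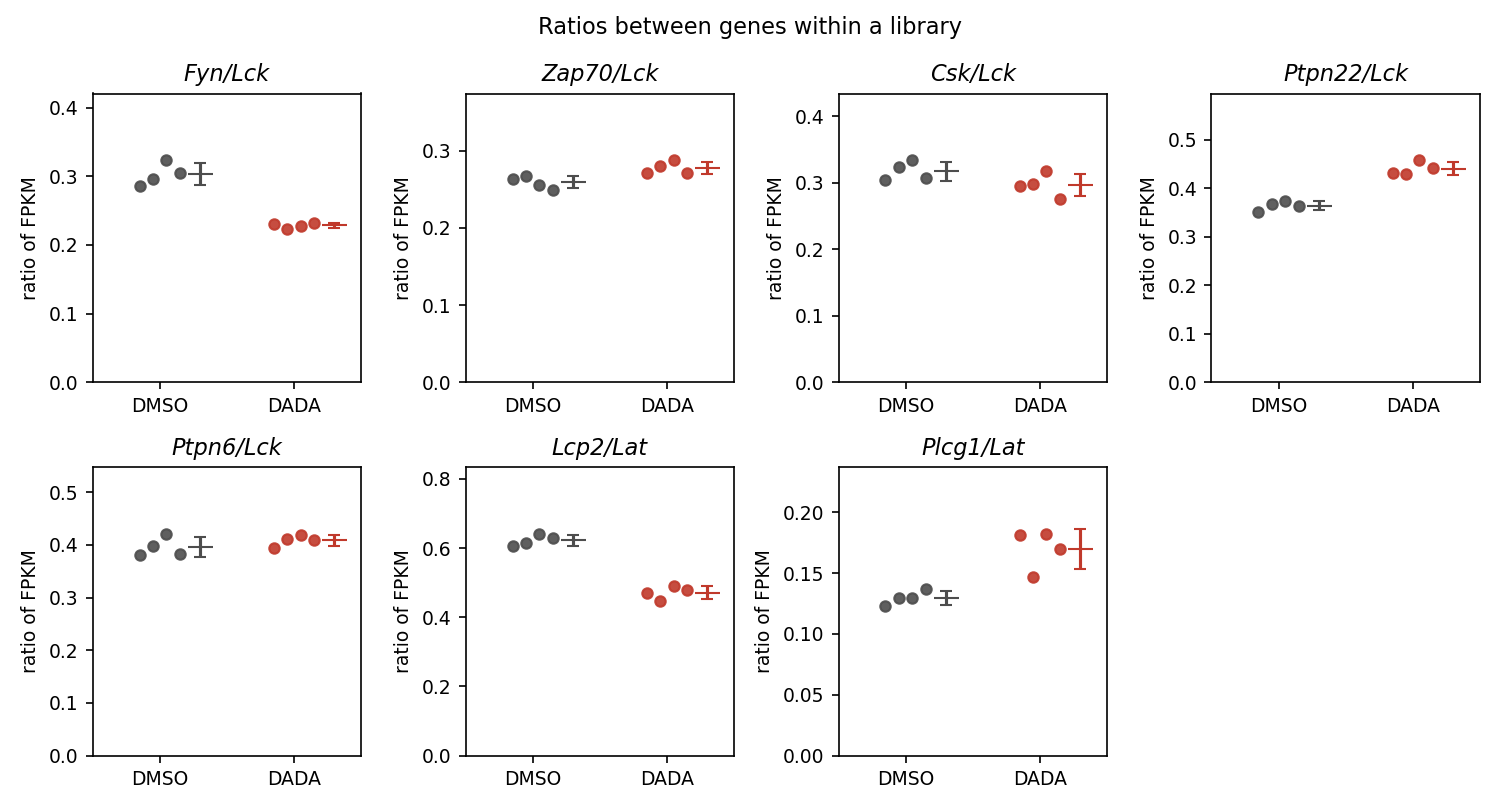
Ratios of FPKM between pairs of genes within a library, on a vertical axis from 0, for the DMSO and DADA groups. Points are libraries 1 to 4 from left to right, and the dash with bars is the mean ± SD (n = 4). *Fyn*/*Lck* and *Lcp2*/*Lat* are lower and *Zap70*/*Lck*, *Ptpn22*/*Lck* and *Plcg1*/*Lat* higher in every DADA library, while *Csk*/*Lck* and *Ptpn6*/*Lck* overlap.

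Around the 9 genes, 67 further genes of the same signalling steps were listed by role, of which 60 passed the filter. Of these, 27 were called higher and 11 lower with DADA and 22 were not called, with a median log2 fold change of 0.07 against -0.02 over all genes tested. Over all genes tested, 30.9% were called higher and 35.3% lower, the shares beside which the counts of each list are given as descriptions. Among the adaptors and exchange factors of the LAT complex, 13 further genes were tested, and 6 were higher, 1 was lower and 6 were not called (median 0.08). *Themis*, a regulator of TCR signalling that binds GRB2 and SHP-1, was at 25.7, 26.9, 25.7 and 27.0 FPKM with DMSO and at 60.8, 59.2, 61.1 and 60.2 FPKM with DADA, or 1.17 on the log2 scale (adjusted p = 2.06e-10 by limma). *Grap2*, which encodes GADS, the link between LAT and SLP-76, rose from 60.9 ± 1.53 to 73.3 ± 1.84 FPKM (log2 fold change 0.27). It thus went the opposite way from *Lcp2*. *Skap1*, an adaptor that couples the complex to integrins, was the gene called lower (2 genes were without DMSO 1, under quantile normalization or with no mean-variance trend), from 60.5 ± 1.60 to 53.5 ± 1.33 FPKM (log2 fold change -0.18).

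Of the 6 other transmembrane adaptors, 1 was higher, 3 were lower and 2 were not called (median -0.21). *Trat1*, which encodes the TCR-interacting adaptor TRIM, was at 8.02, 13.3, 9.93 and 8.82 FPKM with DMSO and at 0.631, 1.14, 0.884 and 0.677 FPKM with DADA. The log2 difference was -2.57 (adjusted p = 1.18e-07 by limma), a value that understates the change at such low levels. *Sit1* fell from 9.25 ± 1.17 to 6.79 ± 0.707 FPKM, and *Lime1* rose from 12.9 ± 1.33 to 18.2 ± 0.903 FPKM. The last of the 3 lower genes was *Pag1*, named after its values were seen because its product docks CSK at the membrane, at 3.88 to 4.06 FPKM with DMSO and 2.80 to 3.03 FPKM with DADA (log2 fold change -0.34, limma, adjusted p = 7.49e-05).

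In the list of Tec kinases, phospholipase C and lipid enzymes, 10 further genes were tested, and 6 were higher, 1 was lower and 3 were not called (median 0.20). The Tec kinases phosphorylate phospholipase C-γ1. Of these, *Tec* and *Txk* rose, from 4.14 ± 0.160 to 9.38 ± 0.557 FPKM and from 6.38 ± 0.555 to 9.06 ± 0.379 FPKM, with log2 fold changes of 1.01 and 0.45. Downstream of phospholipase C-γ1, 16 genes of the calcium and diacylglycerol signalling steps were tested, and 8 were higher, 2 were lower and 6 were not called (median 0.12). *Prkcq*, the protein kinase C of the T cell synapse, rose from 31.6 ± 0.997 to 49.4 ± 1.10 FPKM (log2 fold change 0.63), and *Itpr1*, a calcium release channel, from 12.9 ± 0.672 to 16.9 ± 0.997 FPKM (0.37). *Stim2*, a calcium sensor of the endoplasmic reticulum, fell from 21.2 ± 1.00 to 15.8 ± 0.600 FPKM (-0.41), and *Ppp3r1*, the regulatory subunit of calcineurin, from 57.9 ± 1.77 to 49.6 ± 1.15 FPKM (-0.22).

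Among the phosphatases and other negative regulators, 14 further genes were tested, and 5 were higher, 4 were lower and 5 were not called (median 0.02). *Pstpip1*, an adaptor for PEST-type phosphatases, showed the largest rise, from 39.2 ± 1.25 to 106 ± 2.62 FPKM (log2 fold change 1.42, limma, adjusted p = 1.05e-10). *Ubash3b*, which encodes the phosphatase STS-1, rose from 4.36 ± 0.112 to 6.85 ± 0.526 FPKM (0.55). *Sla2*, an adaptor that lowers receptor signalling, fell from 17.5 ± 0.419 to 11.7 ± 0.383 FPKM (-0.54), and *Dok2* from 24.6 ± 0.977 to 18.7 ± 1.20 FPKM (-0.38). *Ptprc*, the CD45 phosphatase that removes the CSK mark from LCK, was singled out after its values were seen and was at 272 to 291 FPKM with DMSO and 280 to 295 FPKM with DADA (log2 fold change 0.04, limma, adjusted p = 0.230).

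**Figure D4:**
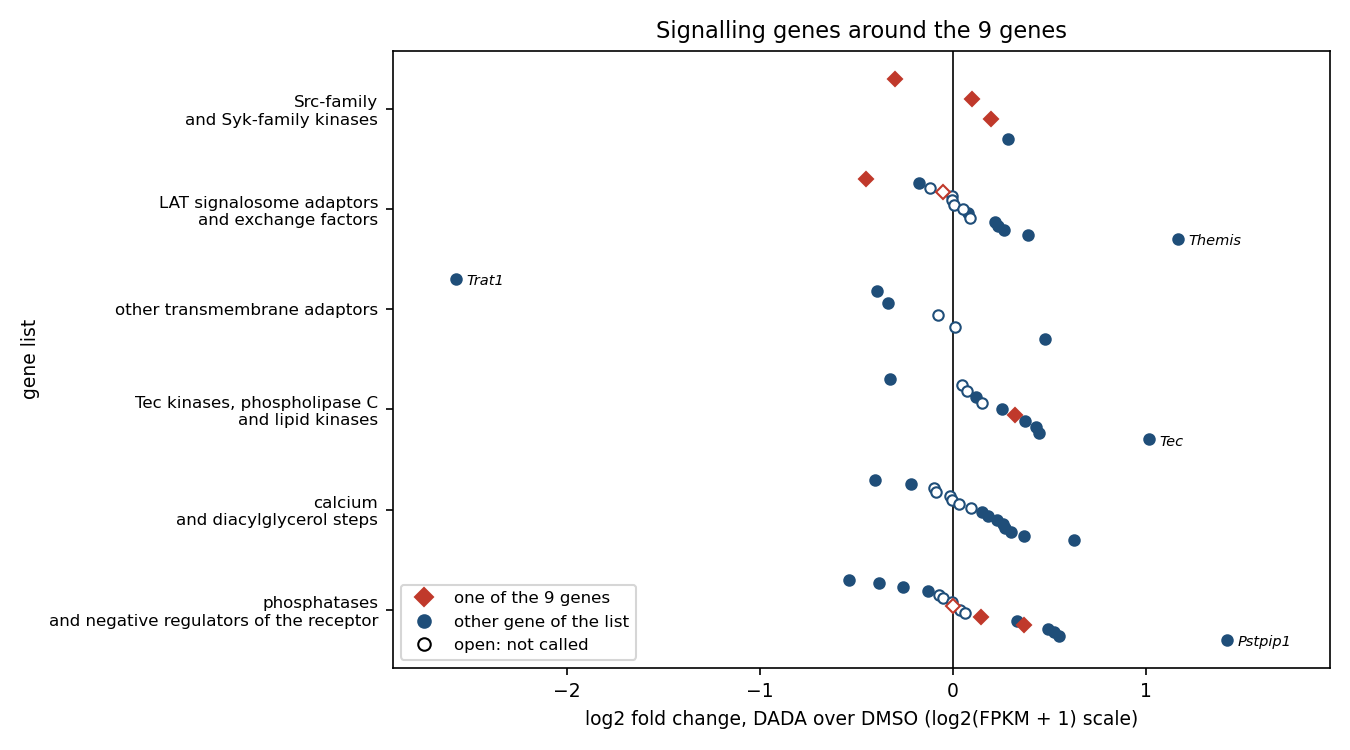
Log2 fold change between DADA and DMSO on the log2(FPKM + 1) scale (horizontal axis) for the tested genes of 6 signalling lists (vertical axis), each point a gene and each list sorted from low to high. Diamonds are the 9 genes, circles the other genes, and open symbols were not called. The 9 genes lie between -0.45 and 0.37, and the 4 named circles lie farther out, *Trat1* at -2.57 and *Tec*, *Themis* and *Pstpip1* at 1.01, 1.17 and 1.42.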

How the data were processed

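Bulk RNA-seq of 8 libraries was analysed, 4 with DMSO and 4 with DADA, grouped by their titles. The values deposited by the authors are FPKM, from paired reads of 150 bp. The submitters' processing notes name HISAT2 2.0.5 and StringTie 1.3.3 and the builds GRCm39 and GRCh38, with no role for each. The labels name the Hieff NGS Ultima Dual-mode kit and the study's methods a Multi-Stranded mRNA-Seq kit. The annotation and the strand setting are not given in the sources used here. RefSeq promoters and GENCODE M21 are on GRCm38, so coordinates are given only for the printed promoter windows, on GRCm38.p6.

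Values were taken as log2(FPKM + 1), for genes at 1 FPKM or more in at least 4 of 8 libraries, and fitted with limma 3.58.1 in R 4.3.3 (eBayes with a mean-variance trend, Benjamini-Hochberg adjustment). The exact permutation test of single values was two-sided and used all 70 assignments. Tested on simulated data with 10666 genes in this comparison, the fit recovered 170 of 200 changed genes and made 6 false calls. The simulated noise was normal, and the changes were not matched in size to those of the 9 genes. Far fewer genes were changed than the 66.2% called in the data. The simulation therefore checks the code and does not give the recovery or false calls for these genes. FPKM hold no counts. The depth is an estimate from 4431 genes with a single GENCODE transcript, for which 38.1% to 42.4% of the lowest values lay within 0.1 of a whole fragment where chance gives 20%, and a doubled depth cannot be told apart by this method. The members and lists were chosen with earlier results of these data known. Genes outside the 9 were named by rule, as the 2 largest rises and falls of each list among those called, averaging 5 FPKM or more and separated between DMSO and DADA, plus the 3 genes nearest to the member that moved most (Euclidean distance of centred log2 values). Those named outside it are marked, and some genes of the lists are not reported here by name. *Fyb* and *Trac* had no row under these symbols. The alternatives were a pseudocount of 0.1, no filter, a mean of at least 5 FPKM, TPM, median-ratio and quantile scaling, no trend, a replicate block, each library left out and no assembled transcripts. Their use on the lists was added after the data were seen. Figures were drawn with matplotlib 3.10.9.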

Additional observations from a re-analysis of the deposited data

Results flagged for a closer look

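In 3 of 66 groups of 4 libraries, for the 9 genes, their ratios and the further genes picked by rule, a single library lay far from the other 3, measured as the distance to its nearest neighbour divided by the whole spread. Chance flags about 1 in 20 groups, which is 3.3 here. *Lat* with DADA had a ratio of 0.850, with DADA 2 at 196 FPKM against 174 to 177 FPKM in the other libraries. *Txk* with DADA had a ratio of 0.833, with DADA 2 at 8.49 FPKM against 9.18 to 9.32 FPKM. *Stim2* with DMSO had a ratio of 0.874, with DMSO 1 at 19.8 FPKM against 21.6 to 21.8 FPKM. The groups still did not overlap for *Txk* and *Stim2*.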

How the results depend on the processing

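Of 153 refitted log2 fold changes of the 9 genes (17 alternatives each), 148 kept their direction and their side of the threshold. *Lat* was called in 1 alternative, without DADA 2, and *Csk* changed sign in 4, with values of -0.0221 to 0.0398 when each library was left out in turn (never called). The 7 called genes kept their calls in all 17, with ranges of 0.09 to 0.13 for *Lck*, -0.31 to -0.26 for *Fyn*, 0.18 to 0.23 for *Zap70*, -0.47 to -0.40 for *Lcp2*, 0.30 to 0.36 for *Plcg1*, 0.13 to 0.19 for *Ptpn6* and 0.36 to 0.42 for *Ptpn22*. The 17 further genes picked by rule kept theirs in all 289 refits, and 6 of 204 counts over the lists moved by over 1.5 times, all of them counts of 0 to 3 genes. The groups share replicate numbers 1 to 4. Across all genes tested, same-numbered libraries did not deviate together (correlations of -0.12 to 0.0953, against -0.267 to 0.134 for differently numbered ones). With 4 libraries in each group, this cannot exclude that the numbers pair them. Fitting the number as a block lowered the standard error of some genes, such as *Trat1* (0.139 to 0.0620). It raised that of others, such as *Tec* (0.0493 to 0.0573). With the replicate block, 6995 genes were called against 7064, and no call among the 9 genes changed. Without the filter, 7868 of 16167 genes were called. Genes near 1 FPKM, such as *Yes1*, are limited by depth, and changes at low levels are understated on this scale.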
